A study of Mus musculus with 48 samples.

Results

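The insulin, IGF1, and mTOR pathway was described through 10 genes, *Igf1*, *Igf1r*, *Irs1*, *Irs2*, *Pik3r1*, *Akt1*, *Akt2*, *Eif4ebp1*, *Sesn1*, and *Deptor*, which were found by symbol among the 56748 genes of the deposited tables. RNA was sequenced from the tibialis anterior, a fast muscle of the lower leg, of male mice whose age the labels give as 39 to 55 weeks. WT mice were compared with FoxP1SkmKO mice, in which Cre under the ACTA1 promoter, active in muscle fibers, removes the transcription factor FoxP1. For the WT mice the sources differ, the labels naming the strain C57BL/6J and the design text naming Cre-free animals with floxed FoxP1, and this was not resolved here. KPC mice had KPC cells, a mouse pancreatic cancer line, injected into the pancreas, and control mice had sterile PBS injected there. Muscles were taken at 6 evenly spaced circadian times from CT18 to CT38, with 2 mice for each genotype, condition, and time, giving 24 groups, 48 libraries, and 12 mice in each of the 4 combinations of genotype and condition, called arms here.

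Libraries held between 14480867 and 20787784 counts on genes, and all 10 genes were among the 15637 kept by the filter on low counts. *Foxp1* itself did not separate the labels. It averaged 0.630 ± 0.140 FPKM (SD, n = 12) in WT control mice, 0.578 ± 0.0682 in FoxP1SkmKO control mice, 0.629 ± 0.102 in WT KPC mice, and 0.544 ± 0.0744 in FoxP1SkmKO KPC mice, where FPKM is the fragment count scaled by gene length and library size. The edgeR difference between genotypes was -0.11 on the log2 scale in control mice (adjusted p = 0.459) and -0.20 in KPC mice (adjusted p = 0.246). Counts over the whole gene do not show which exons were present, and muscle also holds cells in which this Cre is not active. The part of either in the *Foxp1* values was not tested. Markers of fast fibers dominated the RNA, with the 9 listed genes together at a median of 38826 FPKM. Hepatocyte markers, at a median of 0.196 FPKM in sum, reached 158 FPKM in FoxP1SkmKO KPC replicate 2 at CT18 and 48.9 FPKM in FoxP1SkmKO control replicate 1 at CT22; results were also computed without each library.

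Insulin and IGF1 activate receptor tyrosine kinases at the fiber surface, which phosphorylate the adaptors IRS1 and IRS2 and so recruit phosphatidylinositol 3-kinase (PI3K). PI3K lipids activate AKT, which promotes glucose uptake, restrains FOXO transcription factors, and relieves inhibition of the kinase complex mTORC1, a driver of protein synthesis. Most of this control runs through phosphorylation, which RNA-seq does not measure, so the values below are transcript levels only.

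The starts of the genes were read first, because the study removes a forkhead factor and samples the circadian cycle. RefSeq promoter windows of 300 bases (250 before and 50 after a transcription start, build GRCm38.p6) were found for 8 of the 10 genes, 14 windows in all, and none for *Eif4ebp1* or *Deptor*. Both strands were searched for the E-box of clock activators (CACGTG), a forkhead sequence (TGTTTAC), the D-box (TTATGNAA), and the core of nuclear receptor sites (AGGTCA). Of 32851 RefSeq windows of this length, 7.15% held the E-box, 3.65% the forkhead sequence, 3.38% the D-box, and 16.3% the nuclear receptor core. An E-box began at position -115 in the *Irs1* window and at -44 in the *Irs2* window, counted from the transcription start. The nuclear receptor core began at -161 in *Igf1*, at -86 in *Igf1r*, and at -238 in the first *Akt1* window. The forkhead sequence began at -161 in that *Akt1* window and at 23 in the first *Sesn1* window. None of the 4 searches matched in the windows of *Pik3r1* or *Akt2*. Matches are given as a description of the letters in these windows, with no measurement of binding.

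The windows below are those of the 5 genes with a promoter entry whose level changed with circadian time (*Irs1*, *Irs2*, *Igf1r*, *Igf1*, and *Pik3r1*) and of the 2 with a forkhead match, written 5′ to 3′ on the gene's strand with motif matches in capitals. They lie at chr1:82291390-82291689 (*Irs1*, minus strand), chr8:11008880-11009179 (*Irs2*, minus strand), chr7:67952007-67952306 (*Igf1r*, plus strand), chr10:87860861-87861160 (*Igf1*, plus strand), chr13:101768168-101768467 (*Pik3r1*, first window, minus strand), chr10:41810324-41810623 (*Sesn1*, first window, plus strand), and chr12:112674835-112675134 (*Akt1*, first window, minus strand).
Irs1: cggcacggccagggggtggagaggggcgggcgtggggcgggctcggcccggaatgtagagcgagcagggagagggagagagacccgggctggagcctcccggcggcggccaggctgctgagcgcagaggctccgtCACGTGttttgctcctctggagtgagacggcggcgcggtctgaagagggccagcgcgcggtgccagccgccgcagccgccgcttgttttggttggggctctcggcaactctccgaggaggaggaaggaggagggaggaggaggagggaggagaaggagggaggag
Irs2: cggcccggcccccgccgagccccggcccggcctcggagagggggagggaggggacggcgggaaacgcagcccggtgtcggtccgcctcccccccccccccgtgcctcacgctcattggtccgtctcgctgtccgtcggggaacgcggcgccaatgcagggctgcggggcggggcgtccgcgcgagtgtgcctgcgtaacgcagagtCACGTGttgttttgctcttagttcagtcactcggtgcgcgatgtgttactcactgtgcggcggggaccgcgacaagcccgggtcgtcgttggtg
Igf1r: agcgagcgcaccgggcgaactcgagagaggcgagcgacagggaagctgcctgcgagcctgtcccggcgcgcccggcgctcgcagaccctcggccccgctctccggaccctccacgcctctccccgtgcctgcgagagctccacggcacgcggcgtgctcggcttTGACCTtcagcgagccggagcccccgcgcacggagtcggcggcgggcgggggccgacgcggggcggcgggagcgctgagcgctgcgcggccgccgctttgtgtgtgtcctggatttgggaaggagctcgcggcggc
Igf1: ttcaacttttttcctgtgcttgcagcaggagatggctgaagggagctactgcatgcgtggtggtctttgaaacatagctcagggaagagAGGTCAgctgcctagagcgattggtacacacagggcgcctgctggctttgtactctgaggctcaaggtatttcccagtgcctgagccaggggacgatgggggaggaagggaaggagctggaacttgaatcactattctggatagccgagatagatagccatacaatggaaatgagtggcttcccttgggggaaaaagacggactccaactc
Pik3r1: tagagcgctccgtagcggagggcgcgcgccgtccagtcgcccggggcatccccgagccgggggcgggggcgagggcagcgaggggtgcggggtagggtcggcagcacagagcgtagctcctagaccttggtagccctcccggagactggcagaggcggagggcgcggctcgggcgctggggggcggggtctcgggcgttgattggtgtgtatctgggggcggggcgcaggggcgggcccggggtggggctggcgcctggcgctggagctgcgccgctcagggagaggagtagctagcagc
Sesn1: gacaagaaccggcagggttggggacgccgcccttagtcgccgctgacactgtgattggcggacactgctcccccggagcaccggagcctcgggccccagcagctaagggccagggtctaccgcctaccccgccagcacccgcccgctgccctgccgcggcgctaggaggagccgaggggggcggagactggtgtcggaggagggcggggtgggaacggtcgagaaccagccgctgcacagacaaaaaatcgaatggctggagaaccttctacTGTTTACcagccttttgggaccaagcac
Akt1: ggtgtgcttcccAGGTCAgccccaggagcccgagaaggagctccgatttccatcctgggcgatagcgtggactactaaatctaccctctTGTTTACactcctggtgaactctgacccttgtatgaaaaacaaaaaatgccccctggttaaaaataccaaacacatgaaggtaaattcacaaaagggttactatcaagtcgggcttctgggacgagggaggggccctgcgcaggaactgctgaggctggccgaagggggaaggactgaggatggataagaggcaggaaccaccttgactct

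All 10 genes were detected in every library, and their levels spanned 2 orders of magnitude. *Akt2*, the AKT kinase most tied to insulin-stimulated glucose uptake, was the most abundant at 45.6 ± 3.90 FPKM (SD, n = 48). *Akt1*, its growth-related relative, averaged 14.5 ± 1.26 FPKM and overlapped with *Eif4ebp1*, which encodes the translation repressor 4E-BP1, at 13.7 ± 2.43 FPKM. *Deptor*, which encodes an inhibitor bound to mTOR, averaged 11.2 ± 1.71 FPKM. The adaptor transcripts *Irs1* (5.42 ± 1.04 FPKM) and *Irs2* (4.08 ± 0.922 FPKM), the stress-induced mTORC1 inhibitor *Sesn1* (4.65 ± 0.845 FPKM), and *Pik3r1* (4.01 ± 1.37 FPKM), the regulatory subunit of PI3K, did not separate from one another beyond their spread. *Igf1r*, the IGF1 receptor, averaged 1.40 ± 0.242 FPKM. *Igf1*, the growth factor itself, was the lowest at 0.448 ± 0.155 FPKM, with between 35 and 149 counts per library, so that counting error is largest for this gene.

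**Figure D1:**
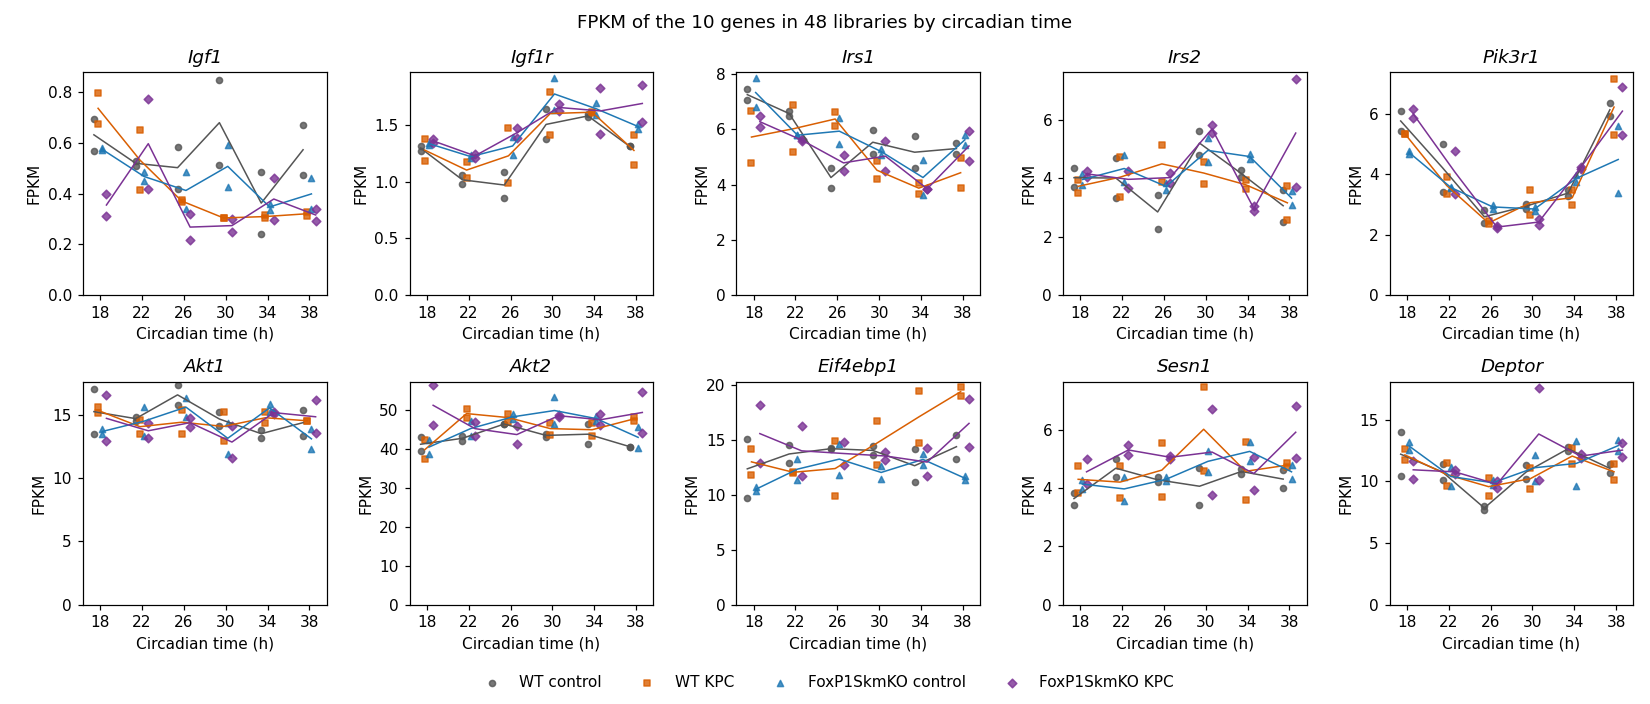
FPKM (vertical axis, from 0) of each of the 10 genes against circadian time in hours, with 1 point per library and lines through the mean of 2 mice per group, colored by genotype and condition. *Pik3r1* falls to its lowest level near CT26 and returns by CT38 in all 4 arms, whereas *Akt1* and *Akt2* stay nearly level.

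The first question was whether these transcripts followed the circadian cycle. Averaged over the 4 arms, 6 of the 10 genes changed with circadian time (edgeR, adjusted p under 0.05), against 40.6% of all genes tested. The median distance between the highest and lowest time means was 0.43 on the log2 scale for the 10 genes and 0.32 for all genes. *Pik3r1* had the widest excursion. It stood at 5.73 ± 1.17 FPKM (SD, n = 8) at CT38, with a lowest library of 3.38, a median of 5.75, and a highest of 7.14. At CT26 it stood at 2.53 ± 0.294 FPKM, with a lowest library of 2.21, a median of 2.41, and a highest of 2.97. No library at CT38 overlapped with one at CT26, and the fold between those time means was 2.22 (adjusted p = 1.44e-12 over all times). The highest and lowest times named for each gene were picked from the same means, so only the test over all 6 times is a test.

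*Igf1r* and the adaptor *Irs1* moved at different times, whereas *Igf1r* and the adaptor *Irs2* were both highest at CT30. *Igf1r* was lowest at CT22, at 1.14 ± 0.104 FPKM (SD, n = 8; libraries from 0.979 to 1.25), and highest at CT30, at 1.64 ± 0.179 FPKM (from 1.38 to 1.92). These ranges did not overlap, the fold was 1.43, and the adjusted p over all times was 8.18e-07. The CT34 mean of *Igf1r*, 1.62 ± 0.117 FPKM, did not differ from that at CT30 beyond the spread. *Irs1* ran the other way, from 6.65 ± 0.943 FPKM at CT18 (lowest 4.77, median 6.74, highest 7.87) down to 4.29 ± 0.741 FPKM at CT34 (lowest 3.64, median 3.97, highest 5.76). Its fold was 1.54 with an adjusted p of 2.72e-06, and CT18 was above CT34 in 4 of 4 arms although single libraries overlapped. *Irs2* was highest at CT30, at 5.003 ± 0.695 FPKM, and low at CT38, at 3.77 ± 1.54 FPKM, where the FoxP1SkmKO KPC replicate 1 library alone reached 7.38 FPKM. The adjusted p of *Irs2* was 0.0127, and leaving out any 1 of 3 libraries raised it to between 0.0513 and 0.054: replicate 1 at CT30 of the WT control, the WT KPC, or the FoxP1SkmKO control mice.

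The ligand *Igf1* and the mTOR inhibitor *Deptor* also changed with time. *Igf1* averaged 0.575 ± 0.158 FPKM (SD, n = 8) at CT18 and 0.350 ± 0.0841 FPKM at CT34, a fold of 1.58 with overlapping libraries (adjusted p = 0.00176), and the order held in 3 of 4 arms. *Deptor* was lowest at CT26 in all 4 arms, at 9.27 ± 0.997 FPKM against 12.1 ± 1.15 FPKM at CT34, a fold of 1.30 (adjusted p = 0.00166). Cell type markers were put to the same test, which 40.6% of all genes passed. It was passed by 5 of 6 fibro-adipogenic, 9 of 10 macrophage, 5 of 7 endothelial, 4 of 5 erythroid, and 3 of 9 fast fiber markers. No tested marker of slow fibers, satellite cells, adipocytes, Schwann cells, neutrophils, lymphocytes, or hepatocytes passed. The part of any of these cells in the time course of *Igf1* was not tested. In bulk muscle, fewer cells of a type and less RNA per cell cannot be told apart. The other 4 genes did not pass. The log2 distance between the highest and lowest time means was 0.15 for *Akt1* (adjusted p = 0.313), 0.14 for *Akt2* (adjusted p = 0.152), 0.27 for *Eif4ebp1* (adjusted p = 0.235), and 0.26 for *Sesn1* (adjusted p = 0.313).

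A 24 h sinusoid was then fitted to FPKM within each arm, to ask which of these transcripts were rhythmic in each genotype and condition, with an unadjusted p under 0.01 as the threshold. In WT control mice 2 of 10 genes passed, against 4.92% of all genes, and in WT KPC mice 3 of 10, against 4.22%. In FoxP1SkmKO control mice 4 of 10 passed, against 4.07%, and in FoxP1SkmKO KPC mice 1 of 10, against 2.63%. Those shares were taken over 27209 to 28711 genes per arm. Restricting the background to the 10007 genes that averaged 1 FPKM or more gave larger shares. Of these, 1053 passed in WT control, 885 in WT KPC, 920 in FoxP1SkmKO control, and 564 in FoxP1SkmKO KPC mice. The pathway genes passing were then 2, 2, 4, and 1 in that order, with *Igf1* left out for its lower mean. *Pik3r1* was the gene that passed in all 4 arms, with peaks between CT39.7 and CT40.3. The fitted amplitude of *Pik3r1* was 44.2% of its mean in WT control mice (p = 0.000151, n = 12), 44.5% in WT KPC mice (p = 0.00121, n = 12), 26.7% in FoxP1SkmKO control mice (p = 0.00496, n = 12), and 51.4% in FoxP1SkmKO KPC mice (p = 1.14e-05, n = 12). Benjamini-Hochberg adjustment over only those 10007 genes left 1 of the 10 genes with an adjusted p under 0.05 in each arm. After the same adjustment over all genes, *Pik3r1* kept an adjusted p under 0.05 in WT control mice (0.0399) and in FoxP1SkmKO KPC mice (0.0203). No other of the 10 genes did in any arm. Leaving out 1 library ended the adjusted call in 11 of 12 fits in WT control mice (adjusted p up to 0.110) and in 10 of 12 in FoxP1SkmKO KPC mice (adjusted p up to 0.0796), while the unadjusted p stayed under 0.01 in each of these fits.

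**Figure D2:**
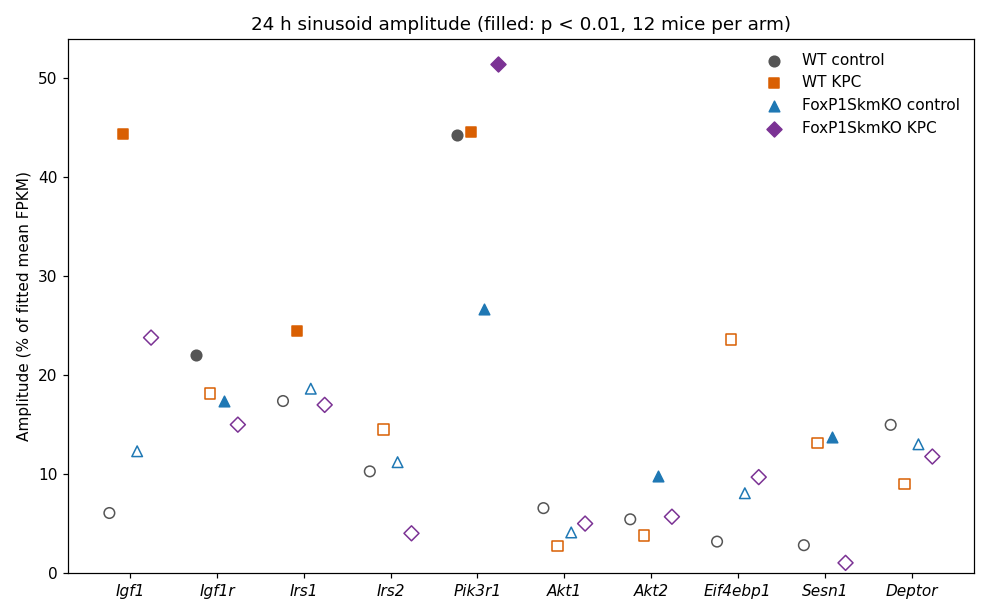
Amplitude of the fitted 24 h sinusoid as a percentage of the fitted mean FPKM (vertical axis, from 0) for each gene, with 1 symbol per arm and filled symbols where p was under 0.01 (n = 12 mice per arm). *Pik3r1* is filled in all 4 arms, between 26.7% and 51.4%, and the symbols of *Akt1*, at most 6.58%, are all open.

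Other rhythm calls were not shared by all arms. *Igf1r* passed in both control arms, with an amplitude of 22.0% in WT (p = 0.00439, n = 12) and 17.4% in FoxP1SkmKO mice (p = 0.00176, n = 12), while in KPC mice its amplitudes were 18.2% (p = 0.0350, n = 12) and 15% (p = 0.0138, n = 12). *Igf1* and *Irs1* passed in WT KPC mice, where *Igf1* had an amplitude of 44.3% (p = 0.00968, n = 12) and *Irs1* one of 24.4% (p = 0.00860, n = 12). In WT control mice the amplitude of *Igf1* was 6.09% (p = 0.888, n = 12). *Sesn1* (13.7%, p = 0.00573, n = 12) and *Akt2* (9.84%, p = 0.00619, n = 12) passed in FoxP1SkmKO control mice. Each of these calls except that of *Igf1r* in FoxP1SkmKO control mice was lost in 5 to 9 of the 12 fits that left out 1 library, and that of *Pik3r1* in FoxP1SkmKO control mice in 6 of 12.

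Passing in 1 arm and not in another is no test of a difference, so the rhythm itself was compared between arms. No gene of the 10 had a different rhythm after adjustment in KPC and control mice of either genotype or in FoxP1SkmKO and WT mice of either condition, and 0% of all genes did in each of the 4 comparisons. At an unadjusted p under 0.05, the sinusoid terms differed between KPC and control mice for *Eif4ebp1* in WT mice (p = 0.0202, n = 24) and for *Pik3r1* (p = 0.00537, n = 24) and *Akt2* (p = 0.0138, n = 24) in FoxP1SkmKO mice, with adjusted p-values of 0.752, 0.757, and 0.757. At that unadjusted level 1501 of all 29593 genes differed in WT mice and 1590 of 31244 in FoxP1SkmKO mice. The genotype comparisons gave 0 of 10 genes at that level, against 1276 of 30632 genes in control and 1129 of 30496 in KPC mice. The difference for *Igf1* between WT KPC and WT control mice had p = 0.180 (n = 24).

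The next comparison asked what KPC tumors did to these transcripts, averaged over the 6 times. No gene of the 10 passed in WT mice, where 1.79% of all genes did, or in FoxP1SkmKO mice, where 0.428% did (edgeR). DESeq2 also called 0 of the 10 in both. The differences of the 10 genes ranged from -0.40 to 0.15 on the log2 scale in WT mice, with a median of 0.02 against 0.0016 for all genes, and from -0.34 to 0.25 in FoxP1SkmKO mice, with a median of 0.05 against 0.0048. *Igf1* lay farthest below 0 in both. In WT control mice it had a lowest library of 0.239, a median of 0.521, and a highest of 0.849 FPKM, and in WT KPC mice these were 0.302, 0.348, and 0.799 FPKM. The arms overlapped, and the KPC difference was -0.40 with a standard error of 0.12 (adjusted p = 0.0911). In FoxP1SkmKO mice *Igf1* had a lowest library of 0.335, a median of 0.456, and a highest of 0.591 FPKM without tumors, and of 0.216, 0.317, and 0.775 FPKM with tumors. That difference was -0.34 with a standard error of 0.13 (adjusted p = 0.238).

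Markers of fibro-adipogenic cells, a known source of *Igf1* in muscle, were lower beside it. In WT KPC mice 3 of 6 such markers fell (*Col1a1*, *Col1a2*, and *Col3a1*), with a list median of -0.60 on the log2 scale, and their summed level ranged from 18.5 to 80.4 FPKM against 29.2 to 94.6 FPKM in WT control mice. In FoxP1SkmKO KPC mice 1 of 6 fell (*Lum*), with a list median of -0.67, and the summed level ranged from 22.3 to 82.5 FPKM against 27.0 to 73.6 FPKM. None of the 10 macrophage markers passed in either genotype. The part of these cells in the *Igf1* values was not tested. Leaving out WT control replicate 2 at CT34, the lowest *Igf1* library of that arm, brought the WT difference to -0.47. The 48 fits that left out 1 library gave WT differences from -0.47 to -0.30. Leaving out all of CT18 gave -0.52 with an adjusted p of 0.0474, and no other time left out gave a call of *Igf1*. Over all 59 alternatives the WT difference ran from -0.52 to -0.25.

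Among the adaptors and outputs, *Irs1* was lower in KPC mice of both genotypes without passing, by -0.14 in WT mice (SE 0.06, adjusted p = 0.266) and by -0.14 in FoxP1SkmKO mice (SE 0.06, adjusted p = 0.364). Averaged over the 5 times other than CT26, the *Irs1* difference in WT mice was -0.29 and passed (adjusted p = 0.0335). It was 0.58 at CT26 and between -0.41 and -0.13 at the other times. *Eif4ebp1* had a lowest library of 10.3, a median of 11.8, and a highest of 14.7 FPKM in FoxP1SkmKO control mice and of 11.8, 14.1, and 18.7 FPKM in FoxP1SkmKO KPC mice, a difference of 0.25 (SE 0.08, adjusted p = 0.155). In WT mice the *Eif4ebp1* difference was 0.10 (SE 0.08, adjusted p = 0.581). *Akt2* stood 0.09 higher in WT KPC mice (SE 0.04, adjusted p = 0.272). The KPC effect did not differ between genotypes for any of the 10 genes, with log2 differences from -0.05 to 0.16. In that comparison 0% of all genes passed in edgeR, as in DESeq2, 1020 genes had an unadjusted p under 0.05, and 0 of the 10 did. The 95% interval of the difference for *Igf1* ran from -0.30 to 0.43, which leaves sizeable differences in either direction undetected.

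**Figure D3:**
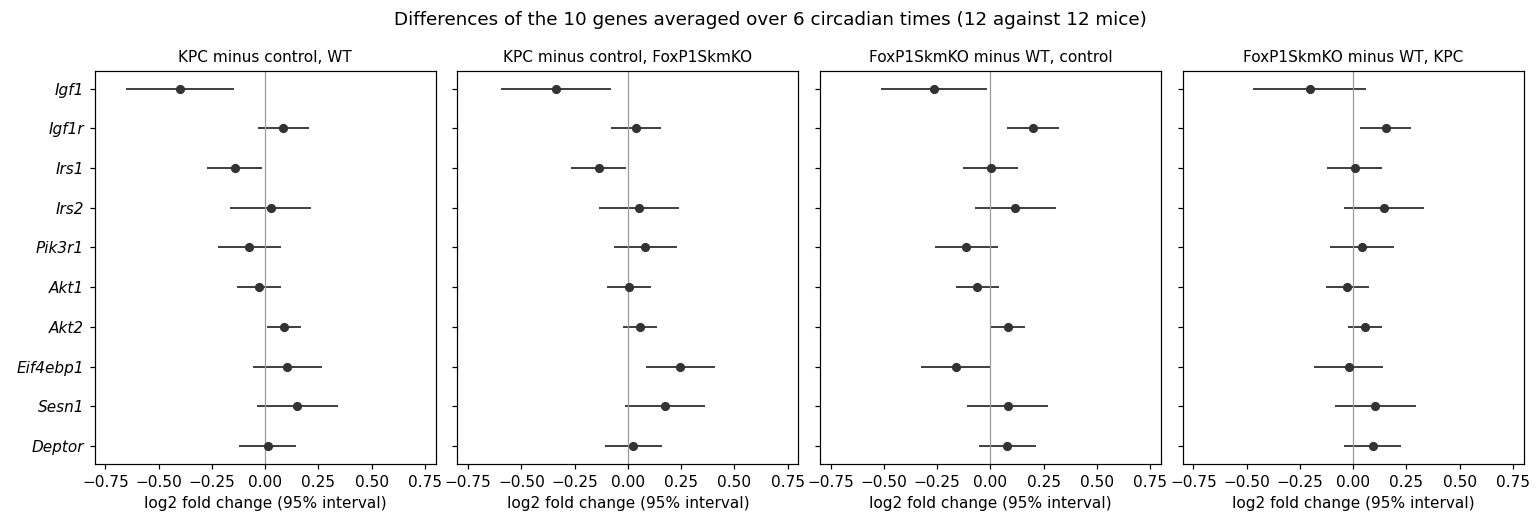
Log2 fold change with its 95% interval (horizontal axis) of each of the 10 genes for KPC minus control in WT and in FoxP1SkmKO mice and for FoxP1SkmKO minus WT in control and in KPC mice, each averaged over 6 times with 12 against 12 mice. *Igf1* lies left of 0 in all 4 panels and *Igf1r* right of 0, and no gene passed after adjustment; panels that use the same libraries are not independent.

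Genotype was compared next, within control mice and within KPC mice. None of the 10 genes passed in control mice, where 3.44% of all genes did, or in KPC mice, where 0.32% did (edgeR). DESeq2 called *Igf1r* in control mice and no other of the 10 genes in either comparison. *Igf1r* was closest to the threshold. Its libraries had a lowest value of 0.856, a median of 1.31, and a highest of 1.64 FPKM in WT control mice and of 1.21, 1.43, and 1.92 FPKM in FoxP1SkmKO control mice. The ranges overlapped, and the difference was 0.20 with a standard error of 0.06 (adjusted p = 0.0527). This call turned on small choices, since 15 of the 48 fits that left out 1 library passed, with differences from 0.17 to 0.23 and adjusted p-values from 0.0224 to 0.139. In KPC mice *Igf1r* differed by 0.15 (SE 0.06, adjusted p = 0.306). *Igf1* in FoxP1SkmKO control mice was -0.27 from WT (SE 0.12, adjusted p = 0.252), *Eif4ebp1* was -0.16 (SE 0.08, adjusted p = 0.291), and *Akt2* was 0.08 (SE 0.04, adjusted p = 0.260).

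KPC and control mice were finally compared at each circadian time, with 2 mice against 2. In WT mice 1 of 10 genes passed at CT26, where 7.17% of all genes did, and none at CT18, CT22, CT30, CT34, or CT38, where 0%, 0%, 0.0064%, 0%, and 0.0256% of all genes did. In FoxP1SkmKO mice none of the 10 passed at any time, against 0.0192% at CT18, 0% at CT22, 0.0384% at CT26, 0% at CT30, 0% at CT34, and 0.0064% at CT38 of all genes (edgeR). At the 11 points other than CT26 in WT mice, DESeq2 on all libraries called none of the 10. The gene that passed was *Irs1*. At CT26 it stood at 3.90 and 4.62 FPKM in the WT control libraries and at 6.64 and 6.12 FPKM in the WT KPC libraries, and in FoxP1SkmKO mice at 6.42 and 5.46 FPKM in control and 4.49 and 5.09 FPKM in KPC libraries. KPC was therefore above control in WT mice and below it in FoxP1SkmKO mice, with no overlap in either.

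The WT difference of *Irs1* at CT26 was 0.58 (SE 0.16, adjusted p = 0.0194), and the FoxP1SkmKO difference was -0.32 (SE 0.15, adjusted p = 0.560). Their difference was -0.89 (SE 0.22), with an adjusted p of 0.0612, where 0.345% of all genes and 0 of the 10 passed. The WT call was lost once each library's dependence on gene length had been subtracted, with a difference of 0.40 and an adjusted p of 0.167. Leaving out WT control replicate 1 at CT26 gave an adjusted p of 0.338, and leaving out replicate 1 or 2 of the WT KPC mice at CT26 gave 0.135 and 0.0569. Without that control library the number of all genes called at CT26 in WT mice fell from 1121 to 89, and without KPC replicate 1 or 2 it fell to 482 and 549. *Irs2* at CT26 in WT mice stood at 2.25 and 3.44 FPKM in control and at 3.86 and 5.12 FPKM in KPC libraries. The edgeR difference was 0.66 (SE 0.23, adjusted p = 0.0800), and DESeq2 called this gene (adjusted p = 0.0306). With 1 library left out, the edgeR difference of *Irs2* ran from 0.370 to 0.999.

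**Figure D4:**
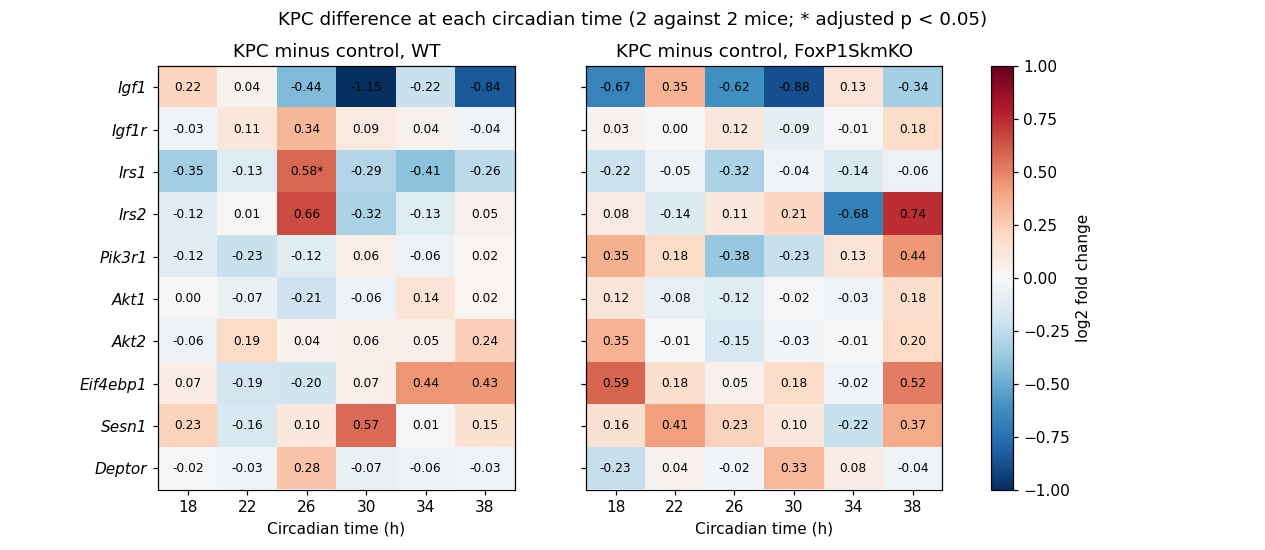
Log2 fold change of KPC against control mice (color and printed value) for each of the 10 genes at each circadian time in hours, in WT mice (left) and FoxP1SkmKO mice (right), with 2 mice against 2 in each cell and a star where the edgeR adjusted p was under 0.05. The 1 star is *Irs1* at CT26 in WT mice, at 0.58, beside -0.32 in FoxP1SkmKO mice.

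A wider list of 100 genes of the same pathway was counted to place the 10. Of its 99 genes tested, 57 changed with circadian time (57.6%, against 40.6% of all genes). By role these were 6 of 7 PI3K genes and 4 of 7 ligand and IGF-binding protein genes. They also held 4 of 6 other receptor and adaptor genes, 4 of 7 receptor-level regulators, and 4 of 8 AKT and lipid phosphatase genes. A further 4 of 7 TSC and Rheb genes, 4 of 10 mTOR complex genes, and 12 of 24 amino acid sensing genes changed. So did 6 of 10 translation genes and 9 of 13 genes of AMPK or of targets of AKT and AMPK signaling. The list's median distance between the highest and lowest time means was 0.26 on the log2 scale, against 0.32 for all genes.

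The 8 list genes with the smallest p over time fell into a few roles. *Pik3cd*, a catalytic subunit of PI3K, and *Pik3ip1*, an inhibitor of PI3K, were both lowest at CT18, at 3.71 ± 0.379 and 7.99 ± 1.43 FPKM (SD, n = 8). *Pik3cd* was highest at CT30 (5.57 ± 0.569 FPKM) and *Pik3ip1* at CT34 (13.6 ± 1.14 FPKM). *Foxo1*, a transcription factor that AKT keeps out of the nucleus, rose 1.64-fold from CT26 (2.03 ± 0.215 FPKM) to CT38 (3.38 ± 0.586 FPKM), the same lowest and highest times as *Pik3r1*. *Tbc1d1*, a substrate of AKT and AMPK that governs glucose transporter traffic, fell from 34.0 ± 3.75 FPKM at CT18 to 18.1 ± 2.81 FPKM at CT30. *Prkaa2*, a catalytic subunit of AMPK, was lowest at CT26 (32.9 ± 3.56 FPKM) and highest at CT34 (42.4 ± 3.01 FPKM). *Fnip1* and *Lamtor2*, both tied to amino acid signals at the lysosome, rose 1.78-fold from CT22 to CT30 and 1.42-fold from CT18 to CT38. *Pdcd4*, a translation inhibitor degraded downstream of mTORC1, rose 1.52-fold from CT18 to CT34.

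By tumor or genotype the shares of list genes called were near those of all genes. In WT mice KPC tumors were accompanied by 1 gene higher and 1 lower of 99 (2.02%, against 1.79% of all genes), and in FoxP1SkmKO mice by none, against 0.428%. Genotype in control mice gave 3 of 99 (3.03%, against 3.44%), and in KPC mice none, against 0.32%. *Socs3*, a cytokine-induced inhibitor that also acts on IRS proteins, stood at 0.903 ± 0.236 FPKM (SD, n = 12) in WT control and 1.62 ± 0.572 FPKM in WT KPC mice, a difference of 0.81 (SE 0.19, adjusted p = 0.0227). *Igfbp6*, which binds IGFs, stood at 19.8 ± 3.85 FPKM in WT control and 14.1 ± 3.74 FPKM in WT KPC mice, a difference of -0.51 (SE 0.11, adjusted p = 0.0114). In FoxP1SkmKO control mice 2 of 99 genes were higher than in WT control mice, *Castor2*, an arginine sensor homolog, by 0.31 (SE 0.06, adjusted p = 0.00341) and *Pik3cd* by 0.18 (SE 0.05, adjusted p = 0.0349). *Rragd*, a GTPase that couples amino acids to mTORC1, was lower, with a difference of -0.15 (SE 0.04, adjusted p = 0.0230). Leaving out 1 library ended the call of *Socs3* in 4 of 48 fits, of *Rragd* in 5, and of *Pik3cd* in 13, and that of *Igfbp6* was lost without CT26 (adjusted p = 0.0507) or without CT38 (adjusted p = 0.0504). At CT26 in WT mice 9 list genes were higher and 2 lower in KPC mice (11.1%, against 7.17% of all genes), in a comparison whose calls over all genes ran from 89 to 1364 with 1 library left out.

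The transcripts whose patterns were most like those of the 6 time-dependent genes were found by Pearson's r over the 24 group means of log2 CPM, given as a description because groups share libraries' depth and time. Among the nearest to *Igf1r* were the clock genes *Per3* (r = 0.90) and *Per1* (r = 0.89). For *Pik3r1* the 3 nearest were *Lonrf3* (r = 0.89), *Klf13* (r = 0.88), and *Gsta3* (r = 0.87). For *Igf1* they were the matrix genes *Fbln7* (r = 0.90), *Dcn* (r = 0.87), and *Lamb1* (r = 0.87), and *Dcn* is also 1 of the 6 fibro-adipogenic markers. *Deptor* was nearest to *Ank3* (r = 0.87), *Acap2* (r = 0.86), and *Ahnak* (r = 0.86), *Irs1* to *Soga1* (r = 0.84), *Ptpn9* (r = 0.84), and *Mir100hg* (r = 0.84), and *Irs2*, less closely, to *Zfp939* (r = 0.76), *Jade1* (r = 0.74), and *Amotl1* (r = 0.73). Among the 10 genes themselves, r over the same 24 means ran from -0.61 for *Igf1* with *Sesn1* to 0.59 for *Igf1r* with *Deptor*. Each of the 10 genes overlaps at least 1 other annotated gene in GRCm39, among them *Igf1os* on the strand opposite *Igf1*, *Siva1* opposite *Akt1*, and *Cep57l1* opposite *Sesn1*, and because the library protocol names both stranded and unstranded synthesis, reads from such partners cannot be told apart here.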

How the data were processed

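The 48 tibialis anterior libraries were poly(A) RNA-seq, and groups came from the labels. The authors deposited raw counts per gene in tables of KPC against control mice and FPKM for all libraries, which they computed from the counts, gene lengths, and library sizes, on build mm39. The methods name STAR and HTSeq, whereas the submitters' processing notes name HISAT2 2.0.5 and DESeq2 1.20.0, and which of them made the counts was not resolved. Counts of genes left out of a table were recovered from the deposited FPKM (100% of 28541 values above 0 were whole within 0.01). The tables' DESeq2 fold changes and p-values, and 96 further per-sample columns, were not used.

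Counts were fitted with edgeR 4.0.16 (R 4.3.3, filterByExpr, TMM, quasi-likelihood, 1 coefficient per group, 24 residual and 8.611 prior degrees of freedom) over all 48 libraries, and contrasts were adjusted by Benjamini-Hochberg over 15637 genes, with an adjusted p under 0.05 called. Standard errors are the log2 difference divided by the root of F. Rhythm was an F test of a 24 h sinusoid on FPKM with no pseudocount (numpy 2.4.6, scipy 1.17.1), with 12 libraries per arm. Both tests were run on simulated data first. Nothing says that the 2 mice of a group shared a cage, litter, or day, and p-values measure the spread between mice.

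Alternatives were DESeq2 1.42.0, RLE scaling, no low-count filter, a replicate block, removal of the trend on gene length, log2(FPKM + 1), log2(FPKM + 0.1), a mean FPKM of at least 1, and each time or library left out. The 10 genes, the 100-gene list, and the tests were chosen with earlier results of these data known. The genes named beside the 10 were the list genes called in an averaged contrast, the 8 with the smallest p over time, the 3 most like each called gene, and *Foxp1*. 1 gene named by this rule is not reported here. The interactions at single times and the CT26 fits without a library were added after the data were seen.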

Additional observations from a re-analysis of the deposited data

Results flagged for a closer look

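For 4 of the 10 genes, both KPC libraries lay on one side of both control libraries in WT mice and on the other side in FoxP1SkmKO mice at the same circadian time. The difference of the KPC effect, FoxP1SkmKO minus WT on the log2 scale, was -0.89 for *Irs1* at CT26 (SE 0.22, adjusted p = 0.0612), 0.47 for *Pik3r1* at CT18 (SE 0.24, adjusted p = 0.505), -0.19 for *Akt2* at CT26 (SE 0.13, adjusted p = 0.626), and 0.53 for *Irs2* at CT30 (SE 0.31, adjusted p = 0.970), so none passed in edgeR. With 2 mice a group such opposite order is common, occurring in 5.83% of all gene and time pairs and in 4 of the 60 pairs of the 10 genes (6.67%).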

How the results depend on the processing

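Of the 10 genes, those called over circadian time numbered 6 with DESeq2, RLE scaling, the replicate block, or the gene length trend removed, and without the low-count filter *Eif4ebp1* (adjusted p = 0.00787) and *Sesn1* (adjusted p = 0.0316) joined them. Averaged over time, KPC in WT mice called 1 of the 10 instead of 0 without CT18 (*Igf1*), without CT26 (*Irs1*), and without the low-count filter (*Igf1*), and KPC in FoxP1SkmKO mice called 1 without that filter (*Eif4ebp1*). The genotype comparison in control mice called 1 (*Igf1r*) without CT34, with RLE scaling, without the filter, and with DESeq2. With 1 library left out, these 3 comparisons called between 0 and 1 of the 10, 0, and between 0 and 1. The KPC comparisons at single times in WT mice called 2 in sum with DESeq2 and 0 with the gene length trend removed, all at CT26, where between 0 and 2 were called with 1 library left out. The sign of 19 of the 50 averaged differences of the 10 genes changed under some alternative, each of these being within 0.0619 of 0 on the log2 scale. Genes called at p under 0.01 for rhythm with 1 library left out numbered between 1 and 2 in WT control, 1 and 3 in WT KPC, 1 and 4 in FoxP1SkmKO control, and 1 and 3 in FoxP1SkmKO KPC mice; the log2(FPKM + 1) and log2(FPKM + 0.1) scales changed no rhythm call.

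Counts over all genes, which give the background shares, moved more. KPC in WT mice called 280 genes, and 138 without CT26, 118 without CT30, 157 without CT34, and 794 without the filter, with 72 to 417 when 1 library was left out. KPC in FoxP1SkmKO mice called 67, and 3 without CT18, 130 without CT22, 15 without CT30, 107 without CT34, 21 without CT38, 527 without the filter, and 161 with DESeq2 (17 to 236 with 1 library left out). The difference between genotypes went from 0 to 104 without the filter (0 to 4 with 1 library left out). Genotype in control mice called 538, and 323 without CT18, 268 without CT38, and 933 without the filter (316 to 768), and in KPC mice 50, and 20 without CT18, 138 without CT22, 0 without CT30, 27 without CT34, 21 without CT38, 470 without the filter, and 116 with DESeq2 (17 to 203). At CT26 in WT mice 1121 became 406 with the length trend removed and 596 with DESeq2 on 4 libraries (89 to 1364 with 1 library left out), and over the 6 times in FoxP1SkmKO mice 10 became 125 with DESeq2 and 185 with DESeq2 on 4 libraries. Genes with a different rhythm stayed between 0 and 1. Fits without a time use fewer libraries in the contrast, and the cause of the other changes was not tested.

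Replicate numbers did not pair KPC with control mice, since the deviations of same-numbered mice correlated between -0.101 and 0.0854 at the 12 combinations of genotype and time and 0 were above 0.1. The replicate block gave 271 genes for KPC in WT mice in place of 280, and it ended the *Igf1* rhythm call in WT KPC mice (p = 0.0160, n = 12) and the adjusted call of *Pik3r1* in WT control mice (adjusted p = 0.0698).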
